A study of Mus musculus with 7 samples.

Results

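The loci of Fos, Jun, Junb and Egr1, 4 immediate early genes of the mouse, were examined for chromatin accessibility in haematopoietic stem cells that carried a Runx3 vector or a control vector. Their members were the peaks of the deposited table whose midpoints lay in 4 fixed windows of the mm9 genome. Position alone decided which peaks were members, but the windows were chosen with earlier results of these data known. The windows held 61 of the 98723 peaks, with 17 at Fos, 21 at Jun, 9 at Junb and 14 at Egr1. The Runx3 group has 3 libraries, numbered 1, 3 and 4, and the control group has 4, numbered 1 to 4. Both groups began as cKit-enriched bone marrow of C57BL/6 mice aged 24 months, which was infected with lentivirus expressing Runx3 or with control lentivirus and transplanted into lethally irradiated recipients. After 16 weeks, stem cells of donor origin that carried the vector were sorted (LSK cells that were CD150+, CD45.2+ and hCD2+ and lacked Flt3 and CD48). Their open chromatin was read by Omni-ATAC-seq, which inserts sequencing adapters into accessible DNA with a transposase. All groups therefore share the old donors, the infection, the irradiation of the host and the transplantation, and no group of young or untransplanted cells enters these comparisons. Separate recipients or donors per library are not stated in the labels, and the p-values therefore rest on a spread between libraries that may be technical.

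Fos and Jun proteins pair through leucine zippers to form AP-1, a transcription factor that binds a short DNA element in promoters and enhancers. Fos dimerises with Jun-family partners and cannot form stable dimers with itself, Jun can pair with itself or with Fos, and JunB is a Jun-family member that often activates weakly and can restrain Jun. Egr1 is a zinc-finger factor that binds GC-rich sites. These genes are transcribed within minutes of a growth factor or stress signal without new protein synthesis, and in mouse bone marrow Egr1 and Junb are known to limit the division of haematopoietic stem cells. Accessibility reports open DNA and not transcription, and in bulk libraries fewer cells with an open site and less opening per cell cannot be told apart.

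The proximal promoters of the AP-1 genes are shown because promoters of immediate early genes are where their inducing factors bind. They are the 250 bases before the RefSeq gene start in GRCm38.p6, on the strand of the gene, with searched motifs in capitals. Fos lies at chr12:85473640-85473889 on the plus strand, Jun at chr4:95052223-95052472 on the minus strand and Junb at chr8:84978749-84978998 on the minus strand. These positions belong to another build than the peaks and cannot be set against them.
Fos: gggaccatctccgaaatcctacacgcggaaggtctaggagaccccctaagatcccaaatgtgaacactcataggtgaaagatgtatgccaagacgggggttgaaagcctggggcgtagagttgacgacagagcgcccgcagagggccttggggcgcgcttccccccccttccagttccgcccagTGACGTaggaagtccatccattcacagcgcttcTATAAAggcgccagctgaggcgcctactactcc
Jun: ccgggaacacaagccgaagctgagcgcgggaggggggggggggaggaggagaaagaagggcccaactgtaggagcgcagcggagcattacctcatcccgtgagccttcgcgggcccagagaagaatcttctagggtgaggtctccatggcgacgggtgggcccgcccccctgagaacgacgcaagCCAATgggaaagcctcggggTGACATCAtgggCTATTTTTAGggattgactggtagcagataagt
Junb: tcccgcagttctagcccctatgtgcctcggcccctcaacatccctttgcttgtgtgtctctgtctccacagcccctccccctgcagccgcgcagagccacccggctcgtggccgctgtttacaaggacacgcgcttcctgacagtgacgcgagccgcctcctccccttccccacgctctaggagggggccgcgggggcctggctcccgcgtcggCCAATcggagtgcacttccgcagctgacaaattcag
Counted from the gene start, the Fos promoter held the CRE core TGACGT, the core of the element bound by CREB-type factors, at -66 to -61, and the TATA box TATAAA at -33 to -28. The Jun promoter held TGACATCA, a form of AP-1 site, at -45 to -38. It also held the CCAAT box CCAAT at -65 to -61 and a site for MEF2, a factor that regulates Jun transcription, at -33 to -24. The Junb promoter held CCAAT at -36 to -32. Among 32536 distinct promoter stretches of the same length in the RefSeq table, 6.5% held TGACGT, 12.3% held TATAAA, 2.84% held TGACATCA, 33.8% held CCAAT and 0.513% held a MEF2 site, on either strand. The search also covered TGACGTCA, which contains TGACGT, with a share of 1.56%, and TGANTCA, with 6.73%. RUNX cores were searched as TGTGGT, with 14% of promoters, and TGCGGT, with 5.1%. EGR sites were searched as GCGTGGGCG, with 0.541%, and GCGGGGGCG, with 2.6%. The CArG box of SRF, searched as a run of A or T of fixed length between CC and GG, had 1.48%. None of these last 7 motifs had a match in the 3 stretches, which says only that the letters are not in them. The Egr1 promoter is not reported here.

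No annotation of mm9 was used, so no peak below is assigned to a promoter, exon or intron, and peaks are placed by their distance from the peak of highest mean level in the same window. In the gene order of GRCm38.p6 the nearest protein-coding genes before and after were Tmed10 and Jdp2 for Fos, Mysm1 and Fggy for Jun, Prdx2 and Hook2 for Junb, and Reep2 and Etf1 for Egr1. Which of them reach into the windows was not determined. Other immediate early and AP-1 genes, and markers of stem cells, were not analysed here for the same reason, and the labelled cell type was not checked against markers.

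Total counts in peaks were 1738164 to 2576715 in the Runx3 libraries and 2188113 to 3758422 in the control libraries, so Runx3 libraries were on average shallower. Levels are CPM, counts scaled to a common library size by the TMM method, and 3 reads are worth 0.79 to 1.72 CPM in these libraries. A low-count filter kept 57504 peaks for the test, and of the 61 members 46 passed it, 13 at Fos, 13 at Jun, 9 at Junb and 11 at Egr1. The 15 others had mean levels of at most 3.53 CPM. Control 1 stood apart from the other controls across the table, since its pairs had a chi-square per degree of freedom of 1.84 to 2.59 against 1.38 to 1.5 among the other 3.

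The loci were open in both groups, and no member passed the test for a difference. Of the 46 tested members, 0 passed an adjusted p of 0.05 in edgeR's quasi-likelihood test, where 0.0730% of all tested peaks did, 0.0330% higher and 0.0400% lower, and the smallest adjusted p among members was 0.239. At an unadjusted p under 0.05 there were 3 members, all higher with Runx3 (6.52%), where 8.31% of all tested peaks passed, 3.91% higher and 4.39% lower. DESeq2, which tested all 61 members, also called 0 of them and 2 higher and 1 lower peaks in the whole table. At an unadjusted p under 0.05 it had 2 members higher and 1 lower, where 1.66% and 1.59% of its 98723 tested peaks were. Limma-voom called 0 of the 46 members, and 5 higher and 0 lower peaks in the table. At an unadjusted p under 0.05 it had 3 members higher and 0 lower, against 4.48% and 3.45% of all tested peaks. The median log2 fold change of tested members was 0.020, and that of all tested peaks was -0.0077. Of the members, 26 had a fitted log2 fold change above 0 and 20 below, or 56.5% above, where 48.8% of all tested peaks were above and 51.2% below. The groups did not overlap at 4 of the 46, or 8.70%, against 8.94% of all tested peaks. Runx3 was above at 2 of the 4 and below at the other 2, against 4.36% and 4.58% of all tested peaks.

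**Figure D1:**
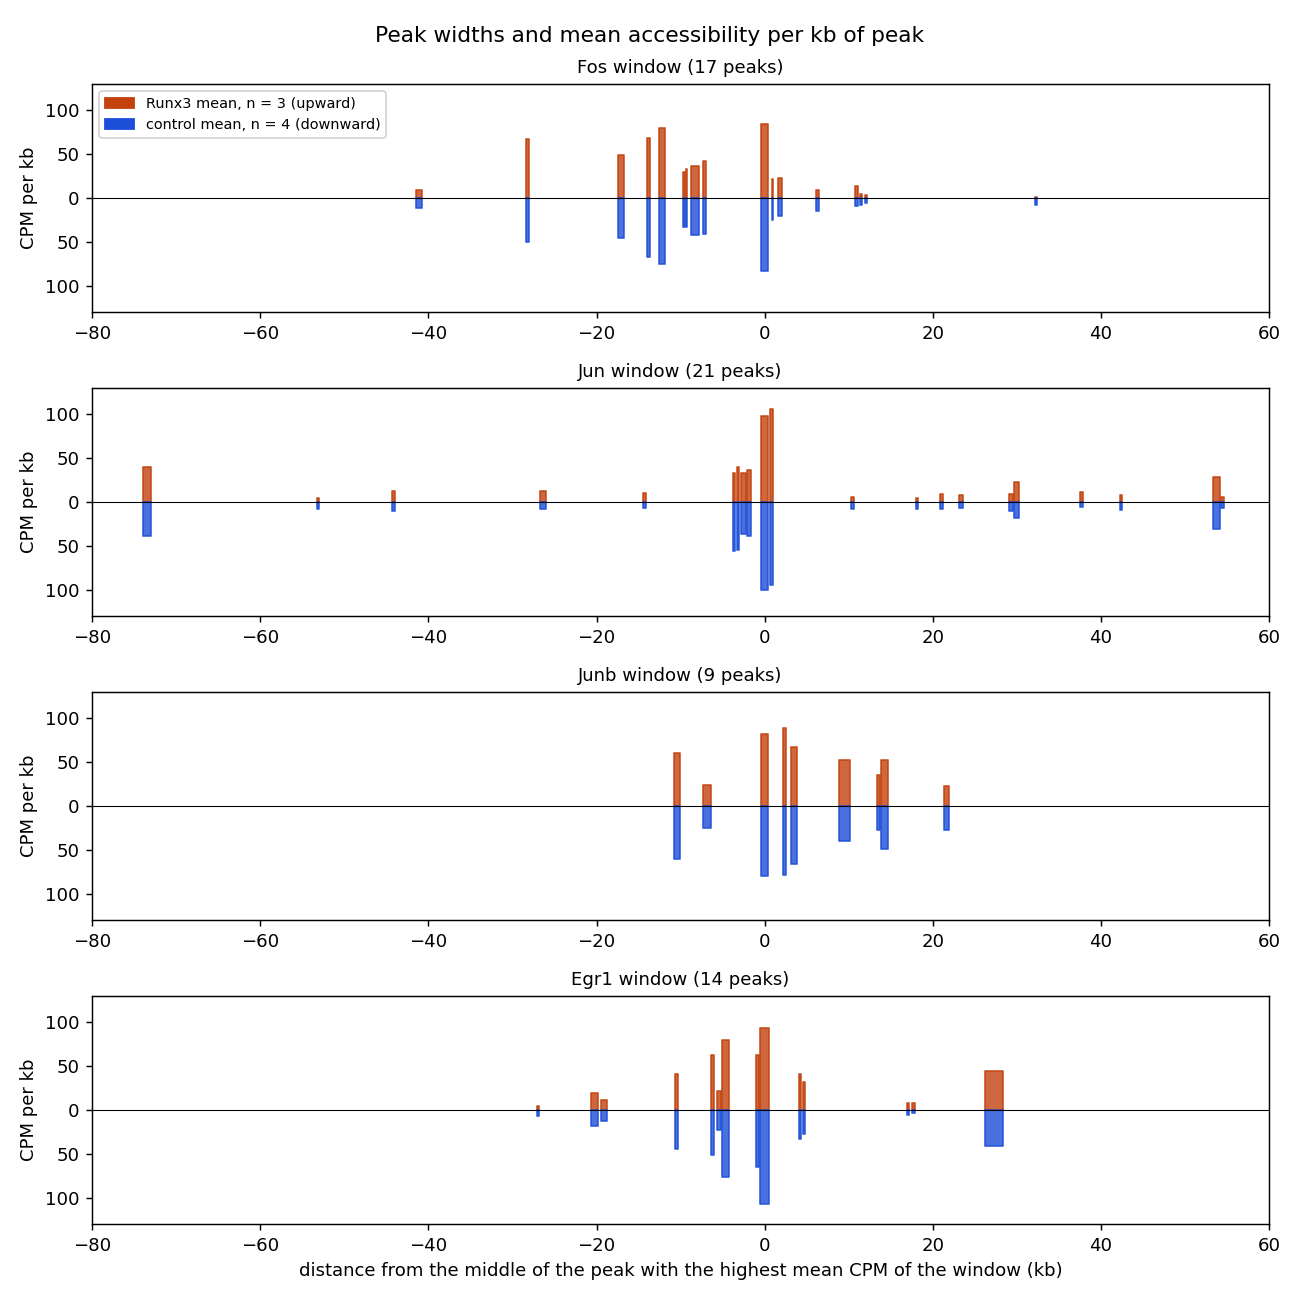
Mean accessibility per kb of peak (vertical axis, CPM per kb) of the 61 peaks, drawn at their width against the distance in kb from the peak of highest mean CPM of each window, for Runx3 (upward, n = 3) and control (downward, n = 4). Upward and downward bars are close to mirror images. Dense peaks cluster around each centre, with low peaks scattered farther out. Some distant peaks are about as dense as peaks of the clusters, such as those 73.5 kb below at Jun and 27.3 kb above at Egr1.

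The summed level of each window was close between the groups. At Fos the 17 peaks summed to 286, 319 and 292 CPM in Runx3 1, 3 and 4, against 314, 276, 277 and 326 CPM in control 1 to 4. The means were 299 ± 17.8 CPM with Runx3 (SD, n = 3) and 298 ± 25.7 CPM in controls (SD, n = 4), a log2 ratio of 0.0047. The controls span the whole range of the Runx3 libraries here.

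At Jun the 21 peaks summed to 299.5, 316 and 293 CPM in Runx3 1, 3 and 4, against 317, 305, 283 and 325 CPM in control 1 to 4. The means were 303 ± 11.6 CPM with Runx3 (SD, n = 3) and 308 ± 18.4 CPM in controls (SD, n = 4), a log2 ratio of -0.023. All 3 Runx3 sums lay inside the range of the controls.

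At Junb the 9 peaks summed to 354, 357 and 327 CPM in Runx3 1, 3 and 4, against 361, 313, 292 and 324 CPM in control 1 to 4. The means were 346 ± 16.6 CPM with Runx3 (SD, n = 3) and 322 ± 29.0 CPM in controls (SD, n = 4), a log2 ratio of 0.10, and all Runx3 sums lay above control 2, 3 and 4 but below control 1. Without control 1 the log2 ratio was 0.16.

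At Egr1 the 14 peaks summed to 368, 397 and 369 CPM in Runx3 1, 3 and 4, against 422, 359, 358 and 379.9 CPM in control 1 to 4. The means were 378 ± 16.6 CPM with Runx3 (SD, n = 3) and 379.5 ± 29.8 CPM in controls (SD, n = 4), a log2 ratio of -0.0058, and control 1 was the highest library. Without control 1 the log2 ratio was 0.049. No p is given for these sums, since the windows were chosen with earlier results of these data known.

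**Figure D2:**
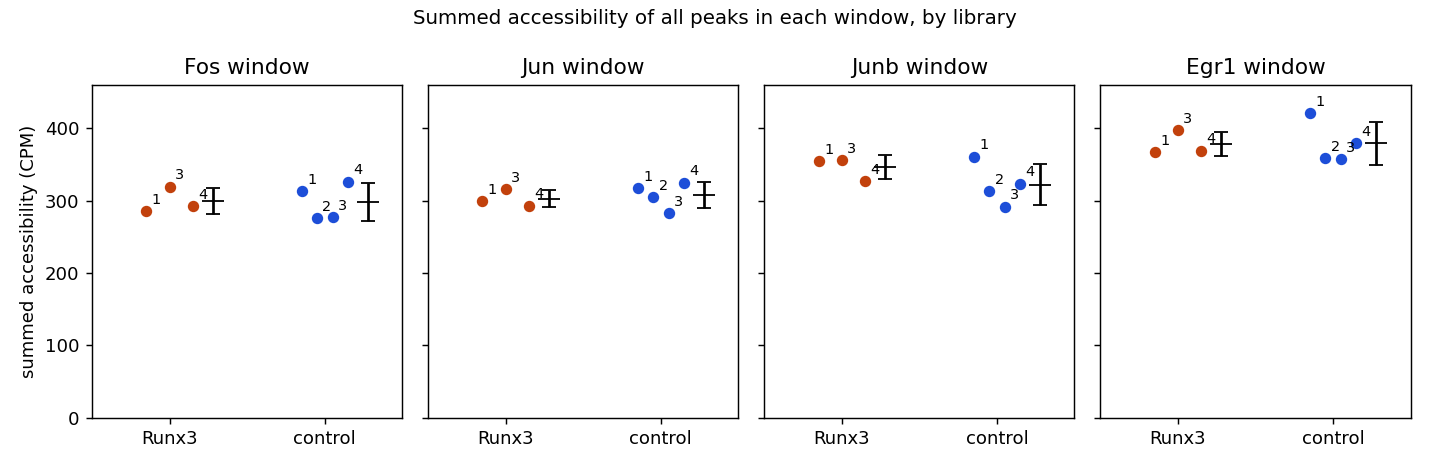
Summed accessibility of all peaks of each window (vertical axis, CPM) by library, with Runx3 libraries left of control libraries, numbers giving the replicate, and black marks giving the mean ± SD (n = 3 and n = 4). The groups overlap in all 4 windows, and at Egr1 control 1 reaches 422 CPM, above the other 6 libraries.

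The windows differ in how their accessibility is laid out. Summed level per kb of window was 8.31 CPM at Junb, 6.31 at Egr1, 3.73 at Fos and 2.18 at Jun, whose windows are 40, 60, 80 and 140 kb long. The strongest 3 peaks held 70.3% of the summed level at Egr1, 54.9% at Jun, 53.7% at Fos and 50.3% at Junb. Members were about as wide as other peaks, with a median of 402 bases against 388 for all peaks, and stronger, with a median level of 10.1 CPM against 4.33 CPM. Of the 61 members 16 were above the 90th percentile of all peaks by mean level, 6 of them at Junb, 4 at Fos, 3 at Jun and 3 at Egr1, and 3 were above the 99th.

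For 41 of the 46 tested members the 95% interval of the fold change lay within 2-fold in either direction, and for 24 it lay within 1.5-fold. The same shares over all tested peaks were not computed, so these counts are not a trait particular to the members. Fitted log2 fold changes ran from -0.74 to 0.75. Intervals and p-values come from the same edgeR fit, so by construction only the 3 members with an unadjusted p under 0.05 had intervals that excluded no change.

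**Figure D3:**
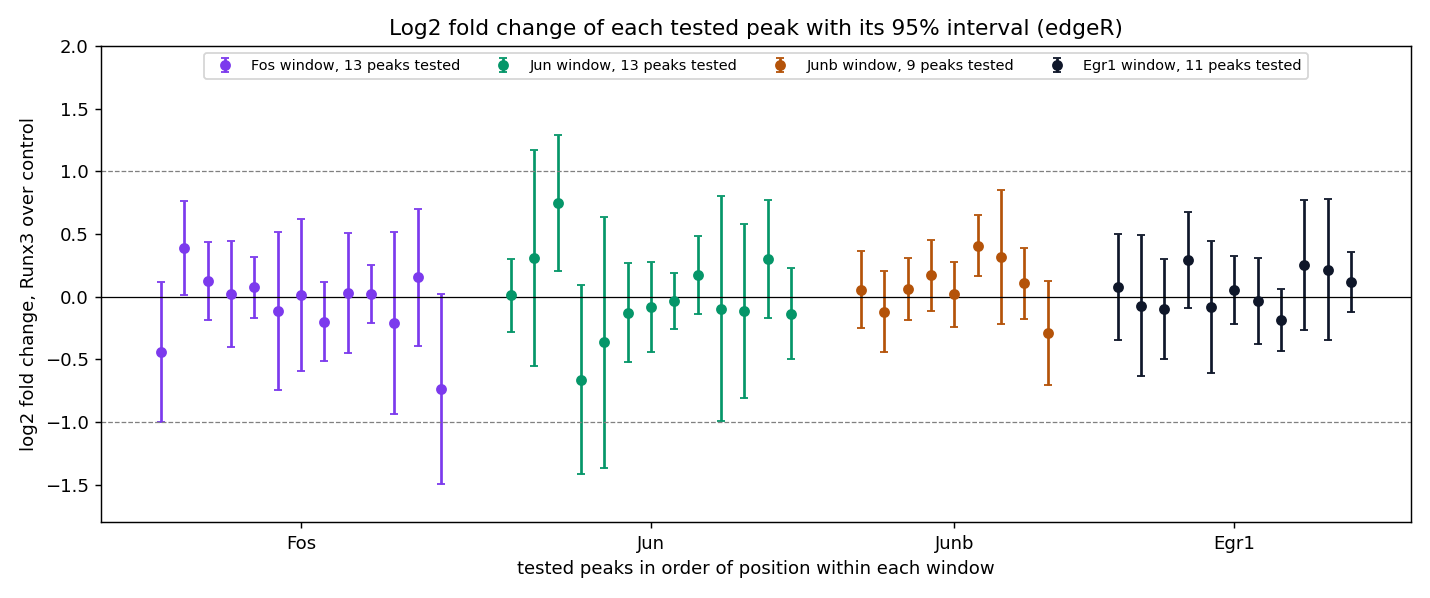
Log2 fold change of Runx3 over control (vertical axis) with its 95% interval from edgeR, for the 46 tested peaks in order of position within each window. Dashed lines mark a 2-fold change, and 3 intervals, each on the higher side, exclude 0.

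Fos encodes the AP-1 partner that needs a Jun protein to bind DNA, and its window had 2 strong peaks 12.2 kb apart. The strongest, at chr12:86826594-86827379, had 63.5, 70.7 and 63.2 CPM in Runx3 1, 3 and 4, against 69.5, 61.0, 63.5 and 66.4 CPM in control 1 to 4. The libraries of both groups are interleaved, with a log2 fold change of 0.021 ± 0.12 (SE) and an edgeR adjusted p of 0.986. The second, at chr12:86814378-86815118, averaged 58.9 ± 2.03 CPM with Runx3 (SD, n = 3) and 55.8 ± 4.85 CPM in controls (SD, n = 4). Per kb of peak they reached 83.3 and 77.2 CPM over all 7 libraries, above 99.67% and 99.53% of peaks in the table.

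Between and around these, the Fos window held a graded cluster. Peaks 17.1, 13.8, 8.3 and 7.2 kb below the strongest averaged 33.1, 21.5, 37.7 and 12.1 CPM over all libraries, and narrow ones 9.6 and 9.3 kb below averaged 6.22 and 6.59 CPM. Their log2 fold changes ran from -0.20, at the peak 8.3 kb below, to 0.13, at the peak 17.1 kb below. On the other side, peaks 0.9 and 1.8 kb above averaged 4.92 and 10.1 CPM. None of these 8 had an unadjusted p under 0.05.

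The Fos peak 28.2 kb below the strongest, at chr12:86798591-86799011, had 26.9, 27.04 and 30.8 CPM in Runx3 1, 3 and 4, against 12.3, 19.6, 24.0 and 27.7 CPM in control 1 to 4. The Runx3 libraries are close together, the controls spread more than 2-fold, and control 4 lies among the Runx3 values. The log2 fold change was 0.39 ± 0.18 (SE), with an unadjusted p of 0.042 and an edgeR adjusted p of 0.575. With depth (the log2 total count) as a covariate it was 0.84 (edgeR adjusted p = 0.108), and without control 1 it was 0.23 (edgeR adjusted p = 0.614).

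Fos peaks whose Runx3 libraries all lay below the controls averaged 4.39, 7.56 and 1.47 CPM, where the median of all peaks was 4.33 CPM. At chr12:86833087-86833434 the level was 4.0, 3.86 and 1.66 CPM in Runx3 1, 3 and 4, against 5.68, 5.71, 5.33 and 4.48 CPM in control 1 to 4. The groups do not overlap, and the log2 fold change of -0.74 ± 0.37 (SE) missed both thresholds (unadjusted p = 0.0555, edgeR adjusted p = 0.617). Without Runx3 4 it was -0.41. At chr12:86785469-86786182 the groups also did not overlap, with 6.33 ± 1.24 CPM with Runx3 (SD, n = 3) and 8.47 ± 0.858 CPM in controls (SD, n = 4), and the edgeR adjusted p was 0.72. The peak nearest the upper end of the window, at chr12:86859152-86859429, was too weak to be tested and had 0, 1 and 1 reads in Runx3 1, 3 and 4, against 10, 6, 4 and 6 reads in control 1 to 4. The other untested Fos peaks, 10.9, 11.5 and 12.1 kb above the strongest, averaged 3.53, 1.85 and 1.05 CPM.

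Jun encodes the AP-1 subunit that can pair with itself, and its window had 1 dominant cluster. The strongest peak, at chr4:94718736-94719636, had 88.0, 88.1 and 87.3 CPM in Runx3 1, 3 and 4, against 87.5, 96.3, 81.9 and 93.8 CPM in control 1 to 4. The Runx3 values agree within 1 CPM and sit in the middle of the controls, with a log2 fold change of -0.033 ± 0.11 (SE) and an edgeR adjusted p of 0.975. Its 95% interval ran from -0.26 to 0.19. The adjoining peak 0.8 kb above averaged 42.0 ± 5.74 CPM with Runx3 (SD, n = 3) and 37.5 ± 9.57 CPM in controls (SD, n = 4). Per kb of peak they reached 98.9 and 99.1 CPM over all libraries, and they held 29.1% and 12.9% of the summed level of the window.

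Below the strongest Jun peak, 4 peaks lay side by side from 94715436 to 94717614, and their summed level varied more between libraries than the strongest peak did. Their sum was 46.9, 60.6 and 61.5 CPM in Runx3 1, 3 and 4, against 79.0, 62.8, 52.3 and 79.6 CPM in control 1 to 4. Relative to the strongest peak this was 53.3%, 68.9% and 70.5% in Runx3 1, 3 and 4, against 90.3%, 65.2%, 63.8% and 84.8% in control 1 to 4. The groups overlap, with control 1 and control 4 high and Runx3 1 low.

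The outermost of these peaks, at chr4:94715436-94715637, had 6.29, 7.34 and 6.24 CPM in Runx3 1, 3 and 4, against 19.9, 7.85, 5.07 and 11.9 CPM in control 1 to 4. The Runx3 values lie within the range of the controls, and control 1 is the highest library. The log2 fold change was -0.66 ± 0.36 (SE) and the edgeR adjusted p was 0.669. Without control 1 it was -0.31, and with depth as a covariate it was -1.15 (edgeR adjusted p = 0.224). Its neighbour at chr4:94715848-94716183 had 5.15, 17.4 and 17.1 CPM in Runx3 1, 3 and 4, against 23.7, 15.3, 9.87 and 23.7 CPM in control 1 to 4. Runx3 1 had 9 reads there, fewer than any other library. The inner peaks at 2.5 and 1.8 kb below the strongest were steadier, with means of 17.3 ± 1.58 and 19.2 ± 0.427 CPM with Runx3 (SD, n = 3) and of 18.7 ± 4.39 and 20.4 ± 2.84 CPM in controls (SD, n = 4).

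**Figure D4:**
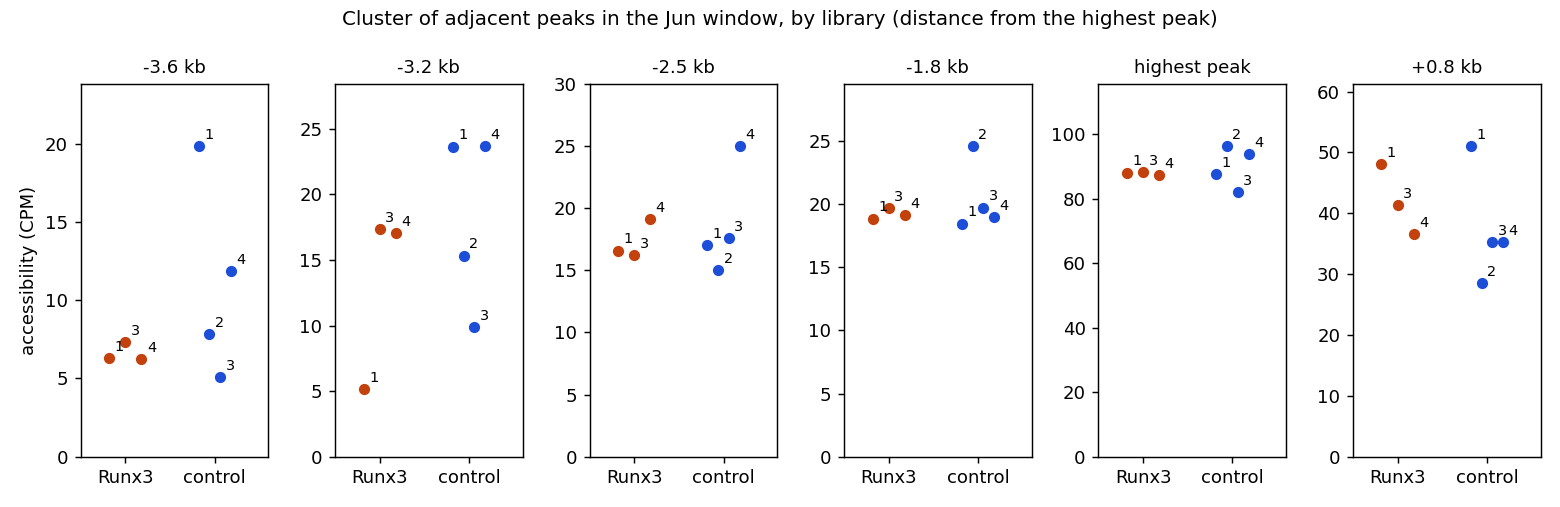
Accessibility (vertical axis, CPM, scaled per panel from 0) of 6 adjacent peaks of the Jun window by library, Runx3 left of control, with replicate numbers and the distance from the strongest peak above each panel. The 3 Runx3 libraries coincide near 88 CPM at the strongest peak, while 3.2 kb below it Runx3 1 has 5.15 CPM and control 1 and 4 reach 23.7 CPM.

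Farther out in the Jun window, 1 peak had groups that did not overlap. At chr4:94692436-94693201, 26.4 kb below the strongest, the level was 10.3, 8.11 and 11.2 CPM in Runx3 1, 3 and 4, against 4.73, 5.71, 6.13 and 6.32 CPM in control 1 to 4. The lowest Runx3 library is above the highest control. The log2 fold change was 0.75 ± 0.27 (SE), with an unadjusted p of 0.00794 and an edgeR adjusted p of 0.362, and it ran from 0.64 to 0.89 when each library was left out in turn. It rests on 10 to 27 reads per library.

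At the other distal Jun peaks the groups overlapped. The peaks 73.5 kb below and 53.8 kb above the strongest averaged 39.7 ± 6.12 and 23.0 ± 6.55 CPM with Runx3 (SD, n = 3), and 38.9 ± 6.50 and 25.5 ± 4.26 CPM in controls (SD, n = 4). The peak 30 kb above averaged 12.3 ± 2.75 CPM with Runx3 (SD, n = 3) and 10.1 ± 1.88 CPM in controls (SD, n = 4). Tested peaks 44.1 kb below and 23.3 and 29.3 kb above had mean levels of 3.98, 3.87 and 4.6 CPM. The 8 Jun peaks that were not tested had between 1.69 and 3.14 CPM.

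Junb encodes the Jun-family member that can oppose Jun, and its window was the most evenly filled, with 9 of 9 peaks tested. The strongest peak, at chr8:87499954-87500775, had 61.7, 74.9 and 66.1 CPM in Runx3 1, 3 and 4, against 72.4, 59.95, 55.5 and 73.5 CPM in control 1 to 4. Both groups span a similar range, with a log2 fold change of 0.061 ± 0.12 (SE) and an edgeR adjusted p of 0.952. Peaks 2.3 and 3.5 kb above it averaged 37.1 ± 2.63 and 44.9 ± 0.737 CPM with Runx3 (SD, n = 3), and 33.2 ± 3.58 and 44.1 ± 5.04 CPM in controls (SD, n = 4). Per kb of peak the first of these was as dense as the strongest, at 83.1 against 80.8 CPM over all libraries.

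The member with the smallest p was in the Junb window. The peak at chr8:87509218-87510465, 1247 bases wide and 9.5 kb above the strongest, had 70.9, 67.6 and 59.0 CPM in Runx3 1, 3 and 4, against 53.0, 43.5, 47.5 and 54.0 CPM in control 1 to 4. All Runx3 libraries are above all controls. The means were 65.8 ± 6.11 CPM with Runx3 (SD, n = 3) and 49.5 ± 4.90 CPM in controls (SD, n = 4), and the log2 fold change was 0.41 ± 0.12 (SE) with a 95% interval from 0.16 to 0.65. The unadjusted p was 0.00179 and the edgeR adjusted p was 0.239, so it did not pass. Without control 1 the log2 fold change was 0.43 and the peak passed (edgeR adjusted p = 0.0376), in a fit that called 73 higher and 194 lower peaks over the whole table. The adjusted p ran from 0.0376 to 0.587 when each library was left out in turn. Hook2, which encodes a microtubule-linker protein, is the next protein-coding gene after Junb in GRCm38.p6, and whether this peak belongs to Junb or to a neighbour was not determined.

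The rest of the Junb window did not separate the groups. The peaks 10.4 kb below and 14.2 kb above the strongest averaged 40.1 ± 4.43 and 43.1 ± 4.99 CPM with Runx3 (SD, n = 3), and 39.8 ± 10.5 and 40.6 ± 6.90 CPM in controls (SD, n = 4). At the first, the level was 36.0, 44.8 and 39.5 CPM in Runx3 1, 3 and 4. Control 1 had 55.3 CPM there, and control 2 to 4 had 36.4, 33.9 and 33.45 CPM. The peak 6.9 kb below averaged 23.3 ± 1.28 CPM with Runx3 (SD, n = 3) and 25.4 ± 1.79 CPM in controls (SD, n = 4). At chr8:87521727-87522313 the level was 16.0, 13.1 and 10.8 CPM in Runx3 1, 3 and 4, against 15.6, 17.1, 16.8 and 14.8 CPM in control 1 to 4. Runx3 1 lies among the controls, and the log2 fold change was -0.29 ± 0.20 (SE) and the edgeR adjusted p was 0.769. Without Runx3 4 it was -0.16. The narrow peak 13.6 kb above had 10.7 ± 3.89 CPM with Runx3 (SD, n = 3) and 8.42 ± 1.80 CPM in controls (SD, n = 4).

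Egr1 encodes the zinc-finger factor of the group, and its window held the strongest member of all. The peak at chr18:35019905-35021044 had 108, 115 and 96.9 CPM in Runx3 1, 3 and 4, against 157, 110.3, 110.4 and 111 CPM in control 1 to 4. Control 1 is far above the other 6 libraries, which lie between 96.9 and 115 CPM. The log2 fold change was -0.19 ± 0.12 (SE) and the edgeR adjusted p was 0.741, with a 95% interval from -0.43 to 0.060. Without control 1 it was -0.052, without Runx3 4 it was -0.12, and with depth as a covariate it was -0.37 (edgeR adjusted p = 0.271). By mean level the peak was at the 99.85th percentile of the table.

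A second strong Egr1 peak, 4.6 kb below the first at chr18:35015458-35016248, had 59.5, 65.3 and 64.9 CPM in Runx3 1, 3 and 4, against 40.7, 65.7, 67.5 and 67.4 CPM in control 1 to 4. Control 1 is here the lowest library. The ratio of the first peak to the second was 1.82, 1.76 and 1.49 in Runx3 1, 3 and 4, against 3.86, 1.68, 1.64 and 1.64 in control 1 to 4, so that control 1 had both the highest level at one and the lowest at the other.

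The broadest member closed the Egr1 window on the upper side. At chr18:35046750-35048840 it spans 2090 bases and had 84.6, 97.7 and 96.1 CPM in Runx3 1, 3 and 4, against 104, 72.4, 79.7 and 89.8 CPM in control 1 to 4. The groups overlap (log2 fold change 0.12 ± 0.12 SE, edgeR adjusted p = 0.872). At chr18:35014130-35014455 the level was 16.6, 24.7 and 19.5 CPM in Runx3 1, 3 and 4, against 13.7, 14.99, 16.3 and 21.1 CPM in control 1 to 4. All Runx3 libraries are above control 1, 2 and 3, control 4 lies among them, and the log2 fold change was 0.29 ± 0.19 (SE) and the edgeR adjusted p was 0.742. It was 0.11 without Runx3 3, 0.44 without control 4 and 0.64 with depth as a covariate (edgeR adjusted p = 0.324).

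The remaining 7 tested Egr1 peaks had mean levels between 7.44 and 25.6 CPM and log2 fold changes between -0.10 and 0.25. The one 0.8 kb below the strongest averaged 25.0 ± 2.06 CPM with Runx3 (SD, n = 3) and 26.0 ± 4.96 CPM in controls (SD, n = 4). The pair 4.2 and 4.7 kb above averaged 9.22 ± 1.14 and 8.04 ± 1.78 CPM with Runx3 (SD, n = 3), and 7.59 ± 1.32 and 6.99 ± 1.5 CPM in controls (SD, n = 4). The 3 untested Egr1 peaks averaged between 1.36 and 1.82 CPM.

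Levels between libraries of the same group varied unevenly over the members. The SD within groups of log2 CPM, with 0.5 CPM added, had a median of 0.27 over tested members and of 0.30 over all tested peaks. Spread falls with level, so each member was also ranked among the 1001 tested peaks nearest in mean level, and the median of these percentiles was 63.3. Of the 46, 28 ranked above the 50th and 6 above the 95th percentile. Those 6 were the Fos peaks 28.2 and 13.8 kb below the strongest (percentiles 97.0 and 97.4), the Jun peaks 3.6 and 3.2 kb below (98.6 and 99.6) and 23.3 kb above (95.9), and the Egr1 peak 4.6 kb below (95.9). The strongest peaks of Fos and Jun were among the steadier ones, at percentiles 10.6 and 11.1. Those of Junb and Egr1 were on the more variable side, at 70.3 and 81.9. These ranks are a description, and members of 1 window share the same libraries.

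**Figure D5:**
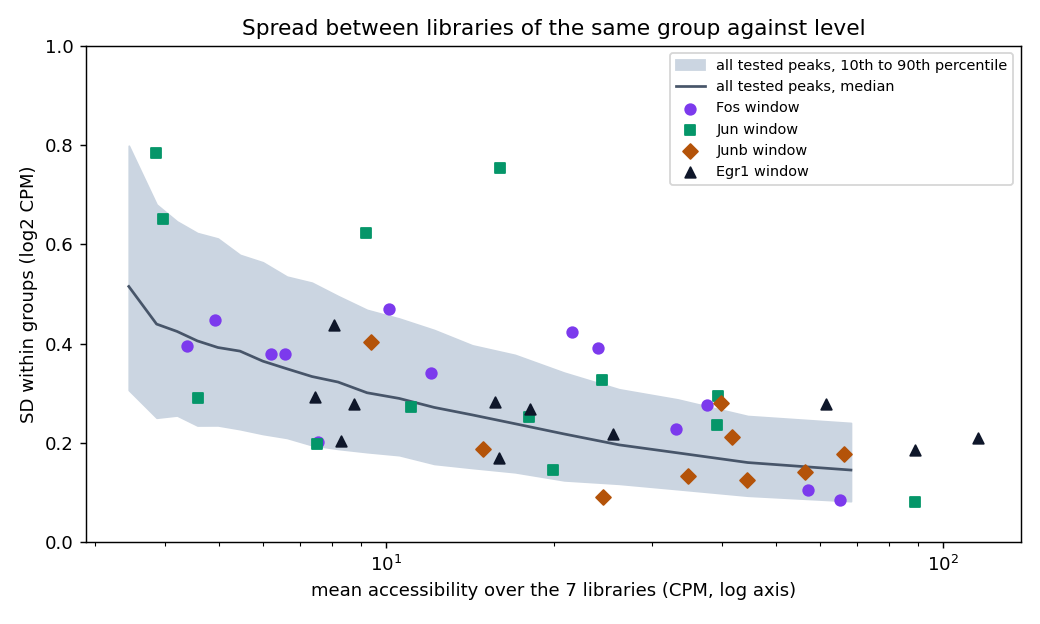
SD within groups of log2 CPM (vertical axis) against mean level over the 7 libraries (horizontal log axis, CPM) for the 46 tested members, with the median and the 10th to 90th percentile band of all tested peaks in 20 classes of level. The Jun peaks 3.6 and 3.2 kb below the strongest stand highest above the band, at 0.62 and 0.75.

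Control 1 was often at one end of the libraries, though its part in the SD within groups was not computed. It was the highest library at 15 and the lowest at 9 of the 46 tested members, 52.2% in all, and it held one of these places at 42.4% of all tested peaks. The other controls did so at 26.1% to 30.4% of members and at 20.1% to 25.5% of all tested peaks. The Runx3 libraries did so at 17.4% to 23.9% of members and at 25.3% to 33.0% of all tested peaks. Values without control 1 were taken only for the window sums and the peaks named by rule, and are given for some of them. How far the other members moved without it was not examined.

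Within the library sets found earlier in these data, control 1, control 2 and Runx3 1 form one and the other 4 libraries the other. The Junb peak 9.5 kb above the strongest had a log2 ratio of 0.55 in the first set and 0.32 in the second, and the Jun peak 26.4 kb below had 0.98 and 0.63. As the groups do not overlap at these 2 peaks, the shared sign was fixed in advance. The Fos peak 28.2 kb below had 0.75 and 0.16, and the Egr1 peak with the highest level had -0.31 and -0.065. The summed windows had -0.043 and 0.019 at Fos, -0.056 and 0.0017 at Jun, 0.073 and 0.15 at Junb, and -0.086 and 0.055 at Egr1. Of 98723 peaks in the table, 57 were at least 8-fold higher in every library of the first set than in any of the second. None of the 61 members was among them, which says little about the members, since so few peaks met the rule.

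The peaks at the window limits were weak, apart from some just inside. Just outside, the nearest peaks averaged 3.39 and 6.10 CPM at Fos, 1.41 and 1.09 at Jun, 2.30 and 1.5 at Junb, and 1.71 and 2.82 at Egr1, at the lower and upper limit in turn. Just inside, they averaged 7.56 and 1.47 CPM at Fos, 39.3 and 2.08 at Jun, 39.9 and 14.9 at Junb, and 1.82 and 89.1 at Egr1.

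The mean log2 level (0.5 CPM added) of the strongest peak of each of the 4 windows was highest in control 1, at 6.52, and lowest in control 3, at 6.24. Among 13486 tested peaks outside the windows with at least 20 CPM, those most like it over the 7 libraries were at chr9:96095851-96097711 (Pearson r = 0.990), chr5:137508391-137509242 (r = 0.988) and chr11:98063339-98065103 (r = 0.987). They are the best of many candidates over few libraries, which share depth and processing, and are given as a description.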

How the data were processed

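Omni-ATAC-seq libraries of sorted stem cells were taken as deposited. The deposited table holds unnormalised counts of reads in each peak. The submitters' processing notes name Bowtie2, SAMtools and Picard, the peak caller MACS2, Trim Galore and FastQC, and the mm9 build. How the common peak set was made, tool versions, and whether reads were shifted for the transposase are not given there. The table does not say whether starts count from 0 or 1, and widths are end minus start.

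Counts were tested over the whole table with edgeR 4.0.16 in R 4.3.3: filterByExpr (minimum count 10, minimum total 15), TMM, and the robust quasi-likelihood test of Runx3 against control on all 7 libraries without a block, Benjamini-Hochberg adjusted over 57504 peaks. Tested peaks hold 91.6% of counts. The SE is the log2 fold change divided by the square root of F, and intervals are 95%. Intervals use the spread between libraries as edgeR estimates it, and reads carry no molecular identifiers.

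Members and lists were chosen with earlier results of these data known. Peaks named by rule were, per window, the strongest, the 2 with the smallest p and any called. Others described singly were chosen after their values were seen. Alternatives covered normalization, filter, DESeq2 1.42.0, limma-voom (limma 3.58.1), robust estimation, depth, a replicate block, library sets and leaving out each library.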

Additional observations from a re-analysis of the deposited data

Results flagged for a closer look

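Of 15 values examined (the 4 window sums and 11 named peaks), 1 had a control library far from the other 3. At the Egr1 peak at chr18:35019905-35021044 control 1 had 157 CPM, far above the 3 others at 110.3 to 111 CPM. The criterion was Dixon's 95% critical value for 4 samples, which chance alone passes in about 1 of 20 groups, and the Runx3 group, with 3 libraries, was not examined in this way.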

How the results depend on the processing

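The call of 0 members in either direction held under 15 of the 16 alternatives. The exception was leaving out control 1, which called 1 member higher, the Junb peak at chr8:87509218-87510465 (log2 fold change 0.43, against 0.35 to 0.48 in the other omissions), so over single omissions the called number ran from 0 to 1 higher and stayed at 0 lower. At an unadjusted p under 0.05, against 3 higher and 0 lower, the depth covariate gave 5 higher and 2 lower of 46 members (4.91% and 5.05% of all tested peaks). DESeq2 and no low-count filter, with all 61 members tested, and the replicate block, with 46, each gave 1 lower (1.59%, 4.02% and 3.97% of all tested peaks). Leaving out single libraries gave 1 to 4 higher and 0 to 2 lower of 46 to 48 members, where 2.70% to 4.96% and 3.35% to 5.85% of all tested peaks were. Window sums moved by less than the spread between libraries in every alternative run on them, normalization, filter and single omissions. Fold changes near 0 changed sign at 3 strongest peaks. With the replicate block Fos had -0.0076 and Jun 0.0032. Over single omissions Fos ran from -0.038 (without Runx3 3) to 0.054, turning also without control 2 (-0.0063), Jun from -0.076 to 0.0018 (without control 2), and Junb from -0.024 (without Runx3 3) to 0.13, turning also without control 3 (-0.012). No cause was tested. The main test did not pair libraries by replicate number. Deviations of same-numbered libraries correlated at 0.124, 0.108 and 0.0671 for numbers 1, 3 and 4. Each Runx3 library correlated best with the control of its own number. The library sets also group these numbers, with Runx3 1 beside control 1 and 2, and Runx3 3 and 4 beside control 3 and 4. Pairing by number was not separated from library set. Whether the numbers mark shared handling was not tested. Under the block, 30 higher and 71 lower peaks were called over the table, against 19 and 23 without it, and 0 were members. Depth limits the weak peaks, of which 15 of 61 were not tested.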
